A study of Mus musculus with 23 samples.

Results

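The transcripts of 10 genes of lipid droplets, fatty acid uptake and mitochondrial uncoupling were measured in TM4 cells, an immortalized mouse Sertoli cell line, after treatment with plasticizers. The genes were Plin2, Plin3, Cd36, Fabp3, Fabp4, Fabp5, Acsl1, Acsl3, Ucp2 and Ucp3, and their probes were found by RefSeq transcript, with no threshold on their values. They account for 10 of the 20145 genes and 13 of the 55681 probes of the array. Fabp3, Acsl1 and Ucp3 had 2 probes each, and the other genes had 1.

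The cells were treated for 48 hr at 100 μM with 1 of 5 compounds or with the vehicle, 1% DMSO, alone. The compounds were MEHP (mono(2-ethylhexyl) phthalate, the active breakdown product of the plasticizer DEHP), DINCH (diisononyl cyclohexane-1,2-dicarboxylate, a commercial replacement), DOM (dioctyl maleate), DOS (dioctyl succinate, which lacks the double bond in the acid core of DOM) and BDB (1,4-butanediol dibenzoate). There were 4 biological replicates per group and 3 for DOS (replicates 1, 3 and 4), in which the study excluded 1 replicate for high background. Each of the 23 samples had its own 1-colour array, and every comparison with DMSO used the same 4 DMSO arrays. All groups were 1 cell line, without the germ cells and hormones that surround a Sertoli cell in the testis.

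Cells take up fatty acids with the help of Cd36 at the surface, carry them inside on fatty acid binding proteins (the Fabp genes) and activate them to acyl-CoA with long chain acyl-CoA synthetases (the Acsl genes). Activated fatty acids are burned in mitochondria or stored as triglyceride in lipid droplets, whose surface is coated by perilipins such as Plin2 and Plin3, and the mitochondrial carriers Ucp2 and Ucp3 belong to the uncoupling protein family. Many of these genes are known targets of the peroxisome proliferator-activated receptors (PPARs), nuclear receptors that fatty acids and MEHP can activate.

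A PPAR binds DNA together with a retinoid X receptor at 2 copies of the half-site AGGTCA set 1 base apart. The 250 bases before the start of a gene were searched on both strands in 32851 RefSeq windows (GRCm38.p6). Of these, 11 (0.0335%) held AGGTCANAGGTCA, and 111 (0.338%) held the looser AGGNCANAGGNCA. None of the 9 windows of 8 of the genes held either (Fabp4 and Fabp5 had no window). A single AGGTCA was in 4607 windows (14%) and in those of 3 of the 8 genes: Ucp3, Plin2 and Cd36. The windows of the neighbours Ucp2 and Ucp3 (no other gene lies between them) are shown because these were the genes that rose, and that of Plin2 because it coats lipid droplets and holds a half-site. They run 5′ to 3′ on the gene's strand, and capitals mark AGGTCA or its reverse complement TGACCT.
Ucp2 (chr7:100493108-100493357, plus strand): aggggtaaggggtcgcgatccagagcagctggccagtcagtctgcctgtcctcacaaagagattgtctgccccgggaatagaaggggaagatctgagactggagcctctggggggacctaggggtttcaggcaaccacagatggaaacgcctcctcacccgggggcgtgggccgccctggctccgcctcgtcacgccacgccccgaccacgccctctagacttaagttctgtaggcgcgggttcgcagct
Ucp3 (chr7:100472741-100472990, plus strand): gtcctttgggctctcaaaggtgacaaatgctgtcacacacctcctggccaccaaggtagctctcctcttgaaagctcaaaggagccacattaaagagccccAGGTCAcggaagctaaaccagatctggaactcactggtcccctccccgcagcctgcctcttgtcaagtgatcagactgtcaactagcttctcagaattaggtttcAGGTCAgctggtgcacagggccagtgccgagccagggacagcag
Plin2 (chr4:86670060-86670309, minus strand): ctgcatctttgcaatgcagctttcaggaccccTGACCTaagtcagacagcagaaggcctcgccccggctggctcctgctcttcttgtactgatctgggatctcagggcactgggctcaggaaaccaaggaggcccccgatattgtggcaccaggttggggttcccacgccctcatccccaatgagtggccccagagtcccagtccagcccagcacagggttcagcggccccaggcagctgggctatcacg
The window of Ucp3 held 2 half-sites, that of Plin2 held 1 on the opposite strand, and that of Ucp2 held none. These letters are a description of short windows and not evidence of binding.

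Levels are given as the log2 of the processed intensity minus the log2 of the array's 75th percentile, so that 1 unit is a doubling. Testing required a signal well above background throughout at least 1 of the 2 groups compared. Of the 10 genes, 7 (Plin2, Plin3, Fabp5, Acsl1, Acsl3, Ucp2 and Ucp3) were tested in every comparison, and their brightest probe was well above background on all 23 arrays. A gene was called changed when its limma p, adjusted by Benjamini-Hochberg over all tested probes, was below 0.05 and the change exceeded 1.5-fold.

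Ucp2 and 1 of the 2 probes of Ucp3 rose with MEHP and with DOM, Fabp5 and Acsl1 fell with DOM, and no gene of the 7 was called with DINCH, BDB or DOS. With MEHP 2 of the 7 genes were called, Ucp2 and Ucp3, both higher. Over all genes tested, 1.68% were called with MEHP. With DOM 4 of the 7 were called, Ucp2 and Ucp3 higher and Acsl1 and Fabp5 lower, where 20.5% of all genes were called. The shares of all genes called were 8.26% with DINCH, 0% with BDB and 0% with DOS. The plot of the level of each gene by array shows these groups.

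**Figure D1:**
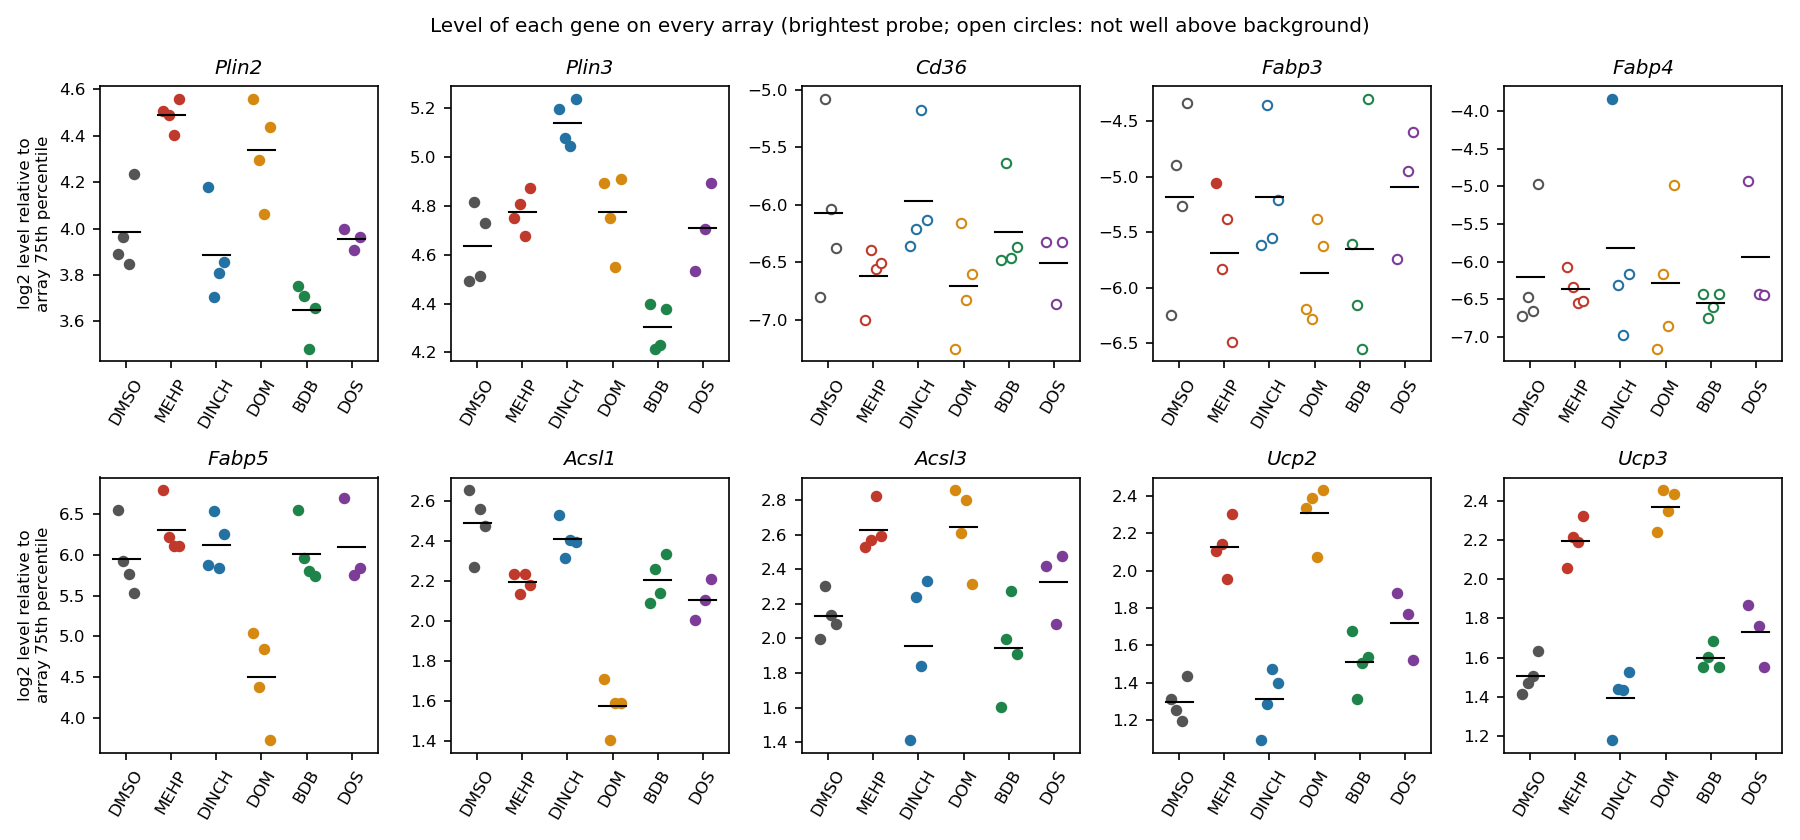
Level of each of the 10 genes (brightest probe) on every array, as log2 relative to the array's 75th percentile, by treatment. Points are arrays, horizontal lines are group means, and open circles are arrays on which the probe was not well above background, as for nearly all arrays of Cd36, Fabp3 and Fabp4. The MEHP and DOM arrays lie above all DMSO arrays for Ucp2 and Ucp3, and the DOM arrays lie below all DMSO arrays for Acsl1 and Fabp5. Over all genes the brightest probe did not overlap with DMSO in 14.4% for MEHP and in 39.4% for DOM.

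Ucp2, an inner mitochondrial membrane carrier expressed in many tissues, lay at 1.31, 1.25, 1.20 and 1.43 on the DMSO arrays. It lay at 2.11, 2.14, 1.96 and 2.30 with MEHP. With DOM it lay at 2.34, 2.39, 2.07 and 2.43. Neither group overlapped with DMSO. The rise was 0.83 log2 units with MEHP (SE 0.096, adjusted p = 0.00775), or 1.78-fold, and it ranked 30 by p among 11947 genes. With DOM the rise was 1.01 (SE 0.11, adjusted p = 0.000418), or 2.01-fold. The DINCH arrays (1.09, 1.29, 1.47 and 1.40) lay around the DMSO arrays, with a difference of 0.014 (95% CI -0.24 to 0.26, adjusted p = 0.957). The BDB arrays lay at 1.68, 1.31, 1.51 and 1.54, a difference of 0.21 (adjusted p = 0.387). The DOS arrays lay at 1.88, 1.77 and 1.52. All 3 were above every DMSO array, but the difference of 0.42 (95% CI 0.15 to 0.70) did not pass (adjusted p = 0.509).

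Ucp3, a close relative of Ucp2 known mainly from skeletal muscle, had values much like those of Ucp2 at its brighter probe. On the DMSO arrays it lay at 1.41, 1.47, 1.51 and 1.63. It lay at 2.06, 2.21, 2.19 and 2.32 with MEHP. With DOM it lay at 2.24, 2.45, 2.35 and 2.43. Again neither group overlapped with DMSO. The rise was 0.69 with MEHP (SE 0.086, adjusted p = 0.00855) and 0.86 with DOM (SE 0.095, adjusted p = 0.000452). The difference from DMSO was -0.11 with DINCH (adjusted p = 0.574), 0.093 with BDB (adjusted p = 0.691) and 0.22 with DOS (adjusted p = 0.772). The DINCH, BDB and DOS arrays overlapped with DMSO.

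The second Ucp3 probe, designed to the same RefSeq transcript, reached the well-above-background mark on none of the 23 arrays. Its group means ran from -6.51 with MEHP to -6.12 with DOS. The 2 probes of Ucp3 thus disagreed, and the rise of Ucp3 rests on the brighter probe alone. With the mean of both probes the change was 0.31 with MEHP (adjusted p = 0.332) and 0.40 with DOM (adjusted p = 0.0724), and neither was called. Whether the brighter probe reads only Ucp3 was not tested.

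**Figure D2:**
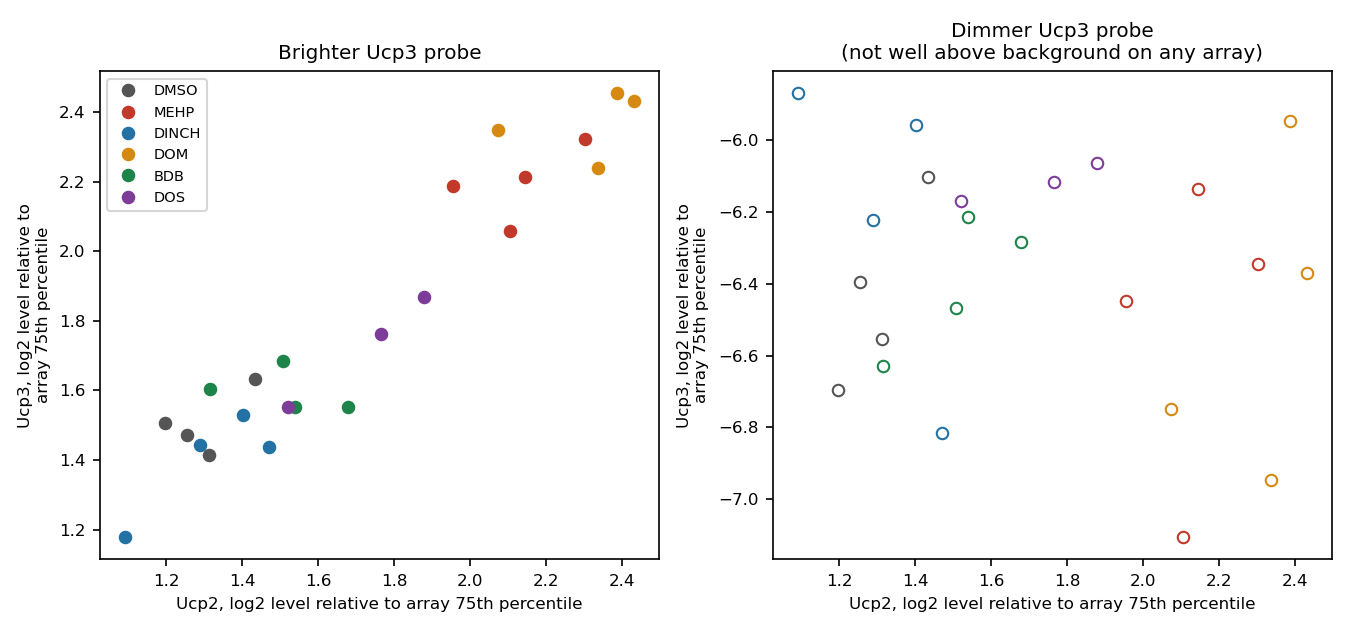
Level of Ucp3 against that of Ucp2 on the 23 arrays, both as log2 relative to the array's 75th percentile, for the brighter Ucp3 probe (left) and the dimmer one (right, open circles, none well above background). With the brighter probe the arrays run along 1 line from DINCH and DMSO to MEHP and DOM, and with the dimmer probe no such line is seen.

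Within the 3 slides, the rise of Ucp2 was 0.73 to 0.87 with MEHP and 0.85 to 1.05 with DOM. That of Ucp3 was 0.69 to 0.72 with MEHP and 0.80 to 0.93 with DOM. DMSO and DOM arrays lay in the same rows of the slides. MEHP, BDB and DINCH arrays lay in other rows, so row and treatment cannot be told apart for these 3 against DMSO. The same holds for MEHP and for DINCH against DOM. MEHP and DINCH shared rows, and there Ucp2 was higher with MEHP by 0.81. When all probes were tested without a filter on dim ones, the adjusted p with MEHP was 0.114 for Ucp2 and 0.129 for Ucp3 at the same change, above the threshold.

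Fabp5, a fatty acid binding protein of epithelial and many other cells, was lower with DOM than with any other treatment. It lay at 6.55, 5.93, 5.76 and 5.54 on the DMSO arrays. With DOM it lay at 5.05, 4.38, 4.84 and 3.73. All DOM arrays were below all DMSO arrays, although both groups were spread widely. Fabp5 fell by 1.45 with DOM (SE 0.30, 95% CI -2.13 to -0.76, adjusted p = 0.0071), or 2.72-fold. Within slides the difference ran from -1.84 to -1.01.

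With the other compounds Fabp5 was not called. The MEHP arrays lay at 6.80, 6.22, 6.11 and 6.11, a difference of 0.36 (adjusted p = 0.495). The DINCH arrays lay at 5.88, 6.54, 5.83 and 6.25, a difference of 0.18 (adjusted p = 0.679). These groups overlapped with DMSO. The difference was 0.068 with BDB (adjusted p = 0.933) and 0.15 with DOS (adjusted p = 0.961). The SD was 0.44 with DMSO (n = 4), 0.33 with MEHP (n = 4) and 0.52 with DOS (n = 3). With this spread the intervals reached 0.89 for MEHP and 0.82 for DOS at the upper end.

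Fabp3 and Fabp4, the binding proteins best known from heart muscle and from adipocytes, could not be tested. Fabp3 was well above background on 1 of 23 arrays with its brighter probe, MEHP replicate 1, and on none with the other. Fabp4 was well above background on 1 array, DINCH replicate 1 (-3.83, against -6.97 to -6.17 on the other DINCH arrays). Cd36, the fatty acid translocase, was well above background on no array of any group. Its level lay between -7.25 and -5.08, where values carry no order. No fold change is given for these 3 genes, and a level below background does not show that the transcript was absent.

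Acsl1 and Acsl3 encode enzymes that activate long chain fatty acids, and with DOM the mean of Acsl1 was below that of DMSO while the mean of Acsl3 was above it. Acsl1 lay at 2.65, 2.27, 2.56 and 2.48 on the DMSO arrays. With DOM it lay at 1.71, 1.40, 1.59 and 1.59. The groups were clearly apart. Acsl1 fell by 0.91 with DOM (SE 0.11, adjusted p = 0.000709), or 1.88-fold, and by 0.82 to 1.09 within slides. Its second probe, also well above background on all 23 arrays, fell by 0.87 (adjusted p = 0.00202).

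Acsl1 was not called with the other compounds. The MEHP arrays (2.23, 2.13, 2.24 and 2.18) and the DOS arrays (2.00, 2.10 and 2.21) were all below the DMSO arrays. The differences were -0.29 for MEHP (adjusted p = 0.166) and -0.38 for DOS (adjusted p = 0.564). The BDB arrays lay at 2.09, 2.26, 2.14 and 2.33, a difference of -0.28 (adjusted p = 0.268). BDB overlapped with DMSO at its highest array. With DINCH the difference was -0.079 at the brighter probe and 0.16 at the other (adjusted p = 0.701 and 0.53), so that the 2 probes differed in sign.

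Acsl3, found on the endoplasmic reticulum and on lipid droplets, lay at 2.00, 2.30, 2.14 and 2.09 on the DMSO arrays. With MEHP it lay at 2.53, 2.57, 2.82 and 2.59. With DOM it lay at 2.86, 2.61, 2.80 and 2.31. Both groups were above all DMSO arrays, DOM replicate 4 by a small margin. The difference was 0.50 for MEHP (SE 0.098, adjusted p = 0.0401) and 0.51 for DOM (SE 0.14, adjusted p = 0.0192). Both passed on p, as did 3.01% of all genes with MEHP and 38.7% with DOM. The differences were 1.41-fold and 1.43-fold, short of the fold threshold. Without DOM replicate 4 the difference for DOM was 0.63 (adjusted p = 0.00781), which was called. On leaving out each array in turn, the adjusted p for DOM ran from 0.00781 to 0.0517. For MEHP it ran from 0.0511 to 0.122, above 0.05 whichever array was left out. With DINCH the arrays were spread from 1.41 to 2.33, a difference of -0.17 (adjusted p = 0.624). Without DINCH replicate 1, the lowest array, the difference was 0.0068. The difference was -0.19 for BDB (adjusted p = 0.629) and 0.19 for DOS (adjusted p = 0.843).

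Plin2, the perilipin that coats lipid droplets in most cells, lay at 3.89, 3.97, 3.85 and 4.23 on the DMSO arrays. With MEHP it lay at 4.51, 4.49, 4.40 and 4.56. With DOM it lay at 4.56, 4.29, 4.06 and 4.44. The MEHP arrays were above every DMSO array, while DOM replicate 3 was below DMSO replicate 4. The difference for MEHP was 0.51 (SE 0.099, adjusted p = 0.0398), or 1.42-fold, and missed the fold threshold. DMSO replicate 4 decided this, since without it the difference was 0.59 (adjusted p = 0.0233), which was called. On leaving out each array in turn, the adjusted p for MEHP ran from 0.0233 to 0.126, so passing on p depended on the arrays kept. With all arrays, 3.01% of all genes passed on p with MEHP. For DOM the difference was 0.35 (adjusted p = 0.0767).

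With BDB, Plin2 lay at 3.75, 3.71, 3.48 and 3.66. All 4 arrays were below the DMSO arrays, with a difference of -0.33 (SE 0.11, adjusted p = 0.21). The differences were -0.097 for DINCH (adjusted p = 0.702) and -0.029 for DOS (adjusted p = 0.98).

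Plin3, a perilipin that moves between cytosol and droplet, lay at 4.49, 4.82, 4.51 and 4.73 on the DMSO arrays. With DINCH it lay at 5.20, 5.08, 5.04 and 5.24. With BDB it lay at 4.40, 4.21, 4.23 and 4.38. The DINCH arrays were all above the DMSO arrays and the BDB arrays all below. The difference of 0.50 for DINCH (SE 0.11, adjusted p = 0.022) was 1.42-fold, and passed on p alone. It was the only 1 of the 7 genes with an adjusted p below 0.05 for DINCH, where 14.9% of all genes had one. On leaving out each array in turn, the adjusted p of Plin3 with DINCH ran from 0.0307 to 0.0759. For BDB the difference was -0.33 (SE 0.10, adjusted p = 0.19). The difference was 0.14 for MEHP (adjusted p = 0.541), 0.14 for DOM (adjusted p = 0.409) and 0.072 for DOS (adjusted p = 0.958).

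BDB did not overlap with DMSO in 2 of the 7 genes (Plin2 and Plin3) and DOS in 2 of the 7 (Ucp2 and Acsl1). Over all genes the brightest probe did not overlap in 12% for BDB and in 8.14% for DOS. The share was 14.4% for MEHP, 24% for DINCH and 39.4% for DOM. No gene at all had an adjusted p below 0.05 with either compound in limma, while 2277 genes (19%) had an unadjusted p below 0.05 for BDB and 923 (7.73%) for DOS. Among the 7 genes these were 3 for BDB and 2 for DOS. The median difference over the 7 genes was 0.50 with MEHP and 0.35 with DOM, beside -0.013 and -0.026 over all genes. It was -0.079 with DINCH, -0.19 with BDB and 0.15 with DOS, beside -0.00065, -0.032 and -0.0084. The medians of the 7 genes rest on few values and had no test.

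**Figure D3:**
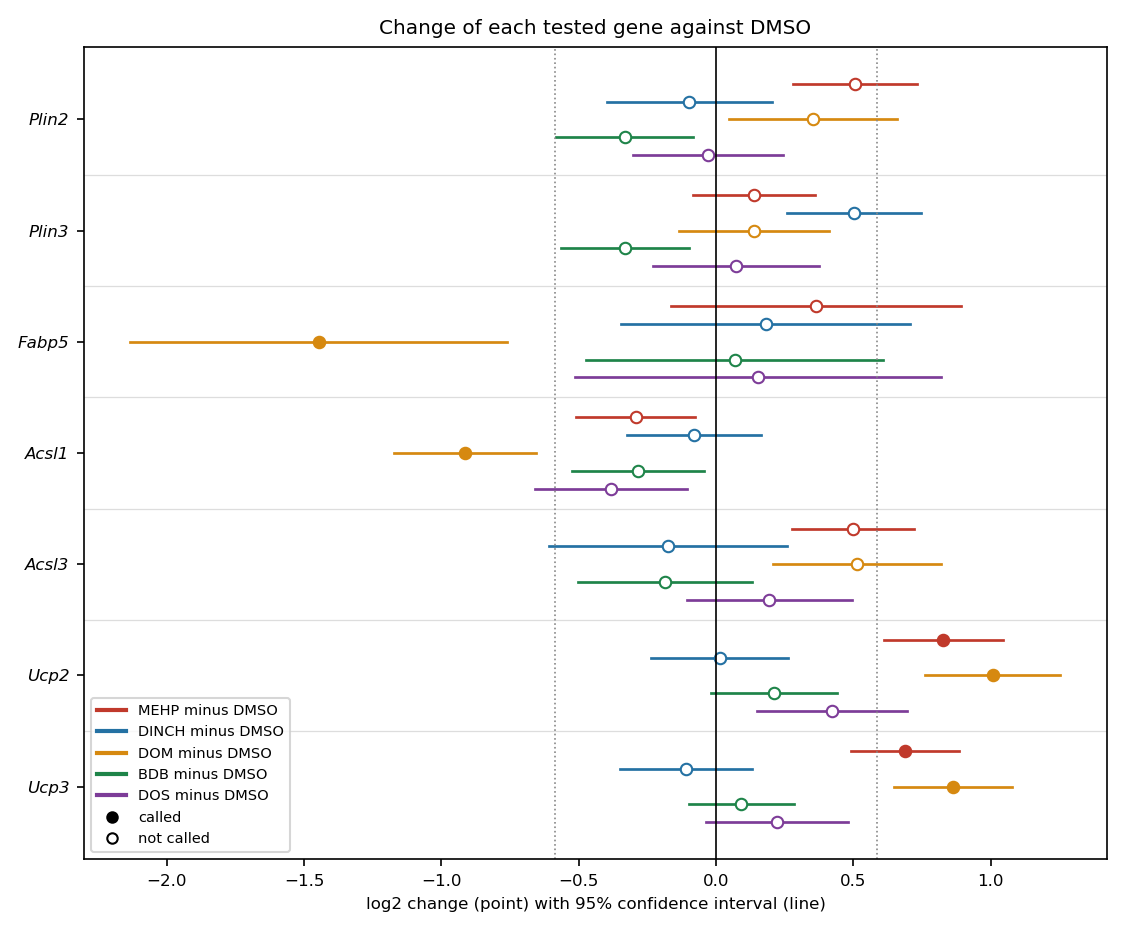
Difference of each compound from DMSO for the 7 tested genes, in log2 units, with the 95% confidence interval as a line. Filled points were called (adjusted p below 0.05 and over 1.5-fold, the dotted lines), and these are Ucp2 and Ucp3 with MEHP and DOM, and Fabp5 and Acsl1 with DOM.

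The compounds were then compared with each other at the same dose and time, in 4 pairs. Calls were made within each pair, and the adjusted p given for a difference is over all probes of the 4 pairs unless stated. That of a fit with arrays left out or with blocks is within the pair. DOM and DOS differ by the double bond of the maleate core. Fabp5 was lower with DOM than with DOS by 1.60 (95% CI 0.82 to 2.37 lower, adjusted p = 0.0117), as the DOS arrays (6.69, 5.76 and 5.84) lay with those of DMSO. Ucp3 was higher with DOM by 0.64 (adjusted p = 0.00639) and Ucp2 by 0.59 (adjusted p = 0.0167). With the mean of both its probes Ucp3 was not called (0.13, adjusted p = 0.608 within the pair). These made 3 of 7 genes called, where 15.2% of all genes were called. The difference in Ucp2 was 1.5-fold, at the threshold, and with same-numbered replicates as blocks it was 0.56 (adjusted p = 0.0564) and was not called.

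The DOM to DOS differences rested on few arrays. Without DOS replicate 4 the differences were 0.49 for Ucp2 and 0.55 for Ucp3, both under 1.5-fold, and 1 gene was left. Ucp2 lost its call without any 1 of 5 of the 7 arrays (DOM replicates 1, 2 and 4, and DOS replicates 3 and 4). Without DOS replicate 1, Fabp5 differed by -1.30 (adjusted p = 0.0598). Acsl1 was lower with DOM by 0.53 (95% CI 0.27 to 0.79 lower, adjusted p = 0.0127), or 1.45-fold, and was not called. The difference was 0.38 for Plin2 (95% CI 0.075 to 0.69), 0.067 for Plin3 (-0.24 to 0.38) and 0.32 for Acsl3 (-0.055 to 0.70), and none of the 3 was called.

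MEHP and DINCH differ in the ring, which is aromatic in MEHP and saturated in DINCH, and also in their alcohols and in the number of ester groups. Ucp2 was higher with MEHP by 0.81 (adjusted p = 0.00126), Ucp3 by 0.80 (adjusted p = 0.000923) and Plin2 by 0.60 (adjusted p = 0.00537). Within the pair, which set the calls, these adjusted p were 0.0103, 0.00826 and 0.0305. So 3 of 7 genes were called, against 2.4% of all genes. With the mean of both probes Ucp3 differed by 0.25 (adjusted p = 0.39 within the pair) and was not called. Plin2 was at the threshold here and lost its call without any 1 of 7 of the 8 arrays (all but DINCH replicate 1). Without MEHP replicate 2 Ucp2 lost its call as well (adjusted p = 0.0569), and 1 gene was left. Acsl3 was higher with MEHP by 0.67, with an adjusted p of 0.1 within the pair and of 0.0318 over the 4 pairs. Fabp5 differed by 0.18 (95% CI -0.26 to 0.63). Plin3 was lower with MEHP by 0.36, with an adjusted p of 0.0702 within the pair and of 0.0185 over the 4 pairs. Acsl1 was lower with MEHP by 0.21 (adjusted p = 0.103). Neither Plin3 nor Acsl1 was called.

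MEHP and DOM differed in Fabp5, higher with MEHP by 1.81 (adjusted p = 0.00249), and in Acsl1, higher with MEHP by 0.62 (adjusted p = 0.00148). These were 2 of 7 genes, against 19.5% of all genes. MEHP and DOM arrays lay in different slide rows, so row and treatment cannot be told apart here. At its brightest probe Acsl1 fell under 1.5-fold without DOM replicate 2 (0.57). Its second probe differed by 0.73 (adjusted p = 0.00101), and 2 genes stayed called whichever array was left out. The other 5 genes were not called. The difference was -0.18 for Ucp2 (95% CI -0.43 to 0.068) and -0.17 for Ucp3 (-0.38 to 0.029), and both intervals include 0. It was 0.15 for Plin2 (-0.10 to 0.41), -0.00043 for Plin3 (-0.23 to 0.23) and -0.016 for Acsl3 (-0.31 to 0.28).

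DINCH and DOM differed in 5 of 7 genes, against 23.3% of all genes. Their arrays also lay in different slide rows, so row and treatment cannot be told apart. Fabp5 was higher with DINCH by 1.63 (adjusted p = 0.00303) and Acsl1 by 0.84 (adjusted p = 0.000765). Ucp2 was lower with DINCH by 0.99 (95% CI 0.71 to 1.28 lower, adjusted p = 0.000727), Ucp3 by 0.97 (adjusted p = 0.00049) and Acsl3 by 0.69 (adjusted p = 0.0414). With the mean of both probes Ucp3 differed by -0.34 (adjusted p = 0.125 within the pair) and was not called. The call of Acsl3 was lost on leaving out any 1 of 5 of the 8 arrays, with a difference of -0.51 without DINCH replicate 1. Plin2 was lower with DINCH by 0.45 (adjusted p = 0.0513) and Plin3 higher by 0.36 (adjusted p = 0.0489). Neither Plin2 nor Plin3 was called.

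**Figure D4:**
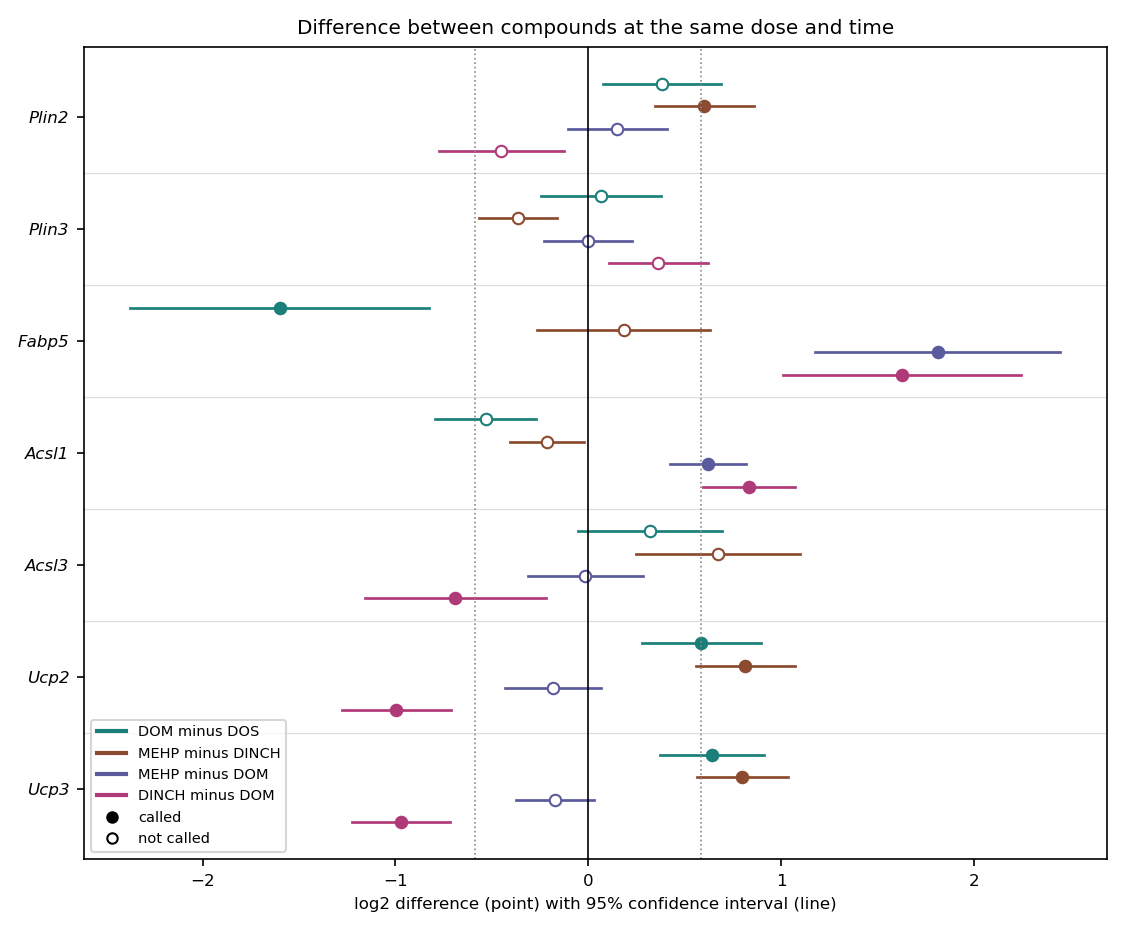
Difference between compounds for the 7 tested genes in 4 pairs, in log2 units, with the 95% confidence interval as a line. Filled points were called within the pair (adjusted p below 0.05 and over 1.5-fold, the dotted lines). Fabp5 lies far from 0 in the 3 pairs that hold DOM and near 0 for MEHP against DINCH.

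Other genes of the same pathways were taken from 3 lists: 17 of lipid droplets, 17 of fatty acid uptake, binding and activation, and 4 of uncoupling carriers. Of the 38 genes, 22 were tested (21 for DOS). With MEHP 1 was called (lower), where 1.68% of all genes were called. With DINCH 3 were called (all lower), beside 8.26% of all genes, and with DOM 3 (2 higher and 1 lower), beside 20.5%. Of the 2 higher, 1 (Lipe) passed the filter through the DOM group alone. With BDB and DOS 0 were called. The median over those tested was -0.19 with DOM and -0.14 with DOS. It was -0.023 with MEHP, -0.048 with DINCH and 0.047 with BDB.

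Dgat2, an enzyme of the last step of triglyceride synthesis, was called with 3 compounds. It fell by 1.31 with DINCH (SE 0.17, adjusted p = 0.00456), by 1.03 with DOM (SE 0.13, adjusted p = 0.000678) and by 0.68 with MEHP (SE 0.13, adjusted p = 0.036). The call with MEHP did not stand with normexp background correction, without the filter on dim probes, or without any 1 of 7 of the 8 arrays (all but DMSO replicate 2). With DOS the difference was -0.54 (adjusted p = 0.464) and with BDB 0.17 (adjusted p = 0.788). Dgat1, another enzyme of that step, was higher with DOM by 0.46 (SE 0.11, adjusted p = 0.0129). This was 1.37-fold and was not called. With DINCH, Lpl, the lipase that frees fatty acids from lipoproteins, fell by 1.06 (SE 0.20, adjusted p = 0.0135), and its second probe fell by 0.96 (adjusted p = 0.0114). Acsbg1, another acyl-CoA synthetase, fell by 1.02 with DINCH (SE 0.20, adjusted p = 0.0166). With DOM, Lipe, the hormone-sensitive lipase, rose by 0.75 (SE 0.21, adjusted p = 0.026), although the groups overlapped. Lipe was well above background on only 3 DMSO arrays (DMSO mean -3.79). It passed the filter through the DOM group alone, where it was higher, so the filter favoured a rise. Slc27a1, a fatty acid transport protein, rose by 0.60 with DOM (SE 0.17, adjusted p = 0.0228). With normexp 1 of the 3 calls with DOM was left. In the uncoupling list Ucp1 reached the well-above-background mark on none of the 23 arrays, and Slc25a14, Slc25a27 and Slc25a30 were tested and not called with any compound.

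For each called gene, the 3 genes outside the set with the nearest 5 differences from DMSO were sought among 11834 genes tested with all 5 compounds. The 5 differences share the DMSO arrays. The root mean square distance from Fabp5 was 0.095 for Ncapd2, a condensin subunit, 0.10 for Brip1, a DNA helicase, and 0.11 for the cytokine Il33. With DOM these differed from DMSO by -1.39, -1.47 and -1.31. The distance from Acsl1 was 0.080 for Lonp1, a mitochondrial protease, and 0.083 for Drp2. With DOM these differed by -0.87 and -0.89. Nearest to Ucp2 were Neurl2 (0.15), Pde6h (0.15) and Ankrd34a (0.16), and nearest to Ucp3 were Elk3 (0.13), Lpcat3 (0.13) and Pde6h (0.15). Ucp3 itself ranked 2 of all genes by nearness to Ucp2 (0.15), and Ucp2 ranked 4 for Ucp3. The values of Ucp3 here are those of its brighter probe alone, and whether that probe reads only Ucp3 was not tested.

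The identity of the cells was checked with marker lists. Of 15 Sertoli cell markers, 9 were well above background on all DMSO arrays, while Wt1, Fshr and Cldn11 were so on no array. Of 5 adipocyte markers none was so on all arrays of any group, Plin1, Lep and Retn were so on no array, and their summed level was at most 0.239 of an array's 75th percentile. With DOM, the summed level of the Sertoli markers was 43.6 to 69.5 times the 75th percentile, against 14.7 to 28.5 with DMSO. Inhbb rose by 1.61 and Inha by 1.05, both inhibin subunits, and Sox9 fell by 0.92. In the sum 1 gene, Inhbb, weighed most: the median difference of the 9 tested Sertoli markers was -0.23, with 4 of 9 above 0. Of 5 smooth muscle markers 3 were tested. With DOM Cnn1 fell by 1.21, while the difference was 0.38 for Acta2 (adjusted p = 0.0579) and -0.19 for Tagln (adjusted p = 0.379). Of 5 germ cell markers none was well above background on all arrays of a group. Of the Leydig cell markers Cyp17a1 was well above background on all 23 arrays, while Cyp11a1, Hsd3b1 and Lhcgr were so on none. Of the macrophage markers Csf1r and Itgam were so on all 23 and Adgre1 and Ptprc on none, and of the endothelial markers Kdr and Pecam1 on all 23 and Cdh5, Tek and Vwf on none. The summed level with DOM against DMSO was 8.28 to 12.1 against 10.2 to 21.4 for Leydig, 13.9 to 20.4 against 13.0 to 15.7 for macrophage and 11.4 to 19.5 against 16.4 to 23.3 for endothelial markers. With DOS the summed level of 5 smooth muscle markers was 203 to 251 times the 75th percentile, against 116 to 149 with DMSO, with none of the tested markers called. The part of these markers in the results above was not tested. In RNA from a whole culture, fewer cells of a kind and less RNA per cell cannot be told apart.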

How the data were processed

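The authors hybridized Cy3-labelled RNA of 23 samples to Agilent 8x60K mouse arrays and extracted spots with Feature Extraction 11.5.1.1, as the deposited intensity of each spot, with background subtracted but no scaling across arrays. In a second table, used here as an alternative, the authors deposited log2 values after a 75th percentile shift and centring of every probe on its median. Column medians of that table ran from -0.36 to 0.18, and each column matched its own array (lowest correlation 0.9996, highest with another array 0.407).

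The 10 genes and all lists were chosen with earlier results of these data known. From the processed intensity (floor 1), the log2 was taken and the array's own 75th percentile subtracted. Between 102 and 187 of the 59305 non-control spots per array were dropped as outliers, and spots of a probe averaged. Probes were named by matching the accession to RefSeq symbols (26582 of 55681 probes, 20145 genes), and 29099 were left unnamed. Unnamed probes that passed the filter were tested as well. The array design and the RefSeq table use different builds, so probes are given no position. The promoter windows carry the positions of their own RefSeq build. Probes at or above the 20th percentile and well above background on every array of at least 1 group were tested with limma 3.58.1 in R 4.3.3 (lmFit and eBayes), using only the arrays of the groups compared. Each gene is represented by its brightest probe over all arrays, and was called if any probe was.

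All tested genes of the set are named in every comparison, and Cd36, Fabp3 and Fabp4 are given as not tested. From the pathway lists up to 3 called genes per compound with the largest change are named, and for each called gene the 3 nearest others, of which 1 is not reported here. The marker genes named, Dgat1, the single half-site search and the second probe of Lpl were chosen after values were seen. Arrays carry no read depth. The number of arrays limits the precision. On each array 43.4% to 52.2% of spots were well above background, and the 75th percentile was 205 to 351 intensity units. Over probes, arrays correlated at 0.971 or more. The 3 slides hold several groups each, and slide 2 holds no DOS array. Replicate numbers come from the sample titles. After subtracting group means, arrays with the same number correlated above 0.1 in every pair for DINCH, BDB and DOS against DMSO (0.158 to 0.555, 0.31 to 0.461 and 0.239 to 0.49), for DOM against DOS (0.124 to 0.429) and for MEHP against DOM (0.238 to 0.644), but not in the other comparisons. The tests were checked on simulated data. Of 200 probes changed by 1 log2 unit, 78% were called for MEHP against DMSO and 56.5% for DOM against DOS. The other comparisons lay between, so changes of that size can be missed.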

Additional observations from a re-analysis of the deposited data

Results flagged for a closer look

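In 50 groups of 4 arrays of the 10 genes, 3 held an array whose gap to the nearest other exceeded Dixon's 95% critical share of the group's range for 4 values. Chance alone flags about 1 in 20 groups. Fabp5 on MEHP replicate 1 lay at 6.80, while the other MEHP arrays lay at 6.11 to 6.22. The other 2 values were below background: Cd36 on BDB replicate 2 at -5.63, and Fabp4 on DMSO replicate 4 at -4.97. Slide 1 also held the highest arrays of Fabp5 for DMSO (6.55), DOM (5.05), BDB (6.55) and DOS (6.69), but not for DINCH (5.88, against 6.54 on slide 2 and 6.25 on slide 3).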

How the results depend on the processing

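Against DMSO, the calls of Ucp2, Acsl1 and Fabp5 with DOM were kept under every alternative tried: quantile normalization, normexp on the median signal (the mean signal was not used here), other filters on dim probes, slide or replicate blocks, all 6 groups in 1 fit, outlier spots kept, a variance trend, the authors' table, the mean over the probes of a gene, and leaving out each array. Without a filter on dim probes 0 of the 7 genes were called with MEHP, 0 for DOM against DOS and 0 for MEHP against DINCH. The mean over probes left 1 with MEHP, and normexp left 1 for MEHP against DOM. Called pathway genes with MEHP were 0 with normexp, without a filter and with detection on 1 array. They were 1 with DINCH without a filter, 1 with DOM with normexp, and 1 with BDB with slide as a block and 1 with all groups in 1 fit. The median with MEHP was 0.43 with normexp, 0.25 without a filter, 0.43 with detection on 1 array and 0.36 with the mean over probes. Without a filter, which adds the genes below background, it was 0.0069 with DINCH, 0.028 with DOM and -0.23 with BDB, and the mean over probes gave 0.039 with DINCH. The causes of the other shifts were not tested.

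Signs that turned all belonged to genes not called. With DINCH, Ucp2 was -0.036 with slide as a block, and the mean over probes gave 0.039 for Acsl1 and 0.056 for Ucp3, which brings in their second probes. On leaving out each array, ranges that crossed 0 were -0.30 to 0.0068 for Acsl3 and -0.038 to 0.088 for Ucp2 with DINCH, -0.11 to 0.27 for Fabp5 with BDB, and -0.14 to 0.36 for Fabp5, -0.074 to 0.054 for Plin2 and -0.019 to 0.16 for Plin3 with DOS. For Plin3 they were -0.021 to 0.16 in DOM against DOS and -0.076 to 0.044 in MEHP against DOM, and for Acsl3 -0.13 to 0.054 in MEHP against DOM. The median ran from 0.43 to 0.51 with MEHP, from -0.10 to 0.0068 with DINCH and from -0.26 to -0.11 with BDB. Called pathway genes with MEHP ran from 0 to 1, and called genes of the 7 from 1 to 3 both for DOM against DOS and for MEHP against DINCH.

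The replicate block changed no call against DMSO. Between compounds it ended that of Ucp2 for DOM against DOS (0.56, adjusted p = 0.0564), where all same-numbered arrays correlated above 0.1. Whether the numbers pair the samples is not given by the titles. Where only some same-numbered arrays did so, the block ended the calls of Plin2 for MEHP against DINCH (adjusted p = 0.0653) and of Acsl3 for DINCH against DOM (adjusted p = 0.0585). With 3 or 4 arrays a group, intervals were widest for Fabp5, and Cd36, Fabp3 and Fabp4 lay too near background to test.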
